A study of Mus musculus with 48 samples.

Results

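The genotype by diet interaction in the liver of fed mice asks, for each gene, whether a high fat diet (HFD) moved its mRNA by the same amount with and without hepatocyte p110α. It was computed on the log2 scale as the HFD effect in mice without p110α minus the HFD effect in mice with it. A negative interaction means a smaller rise or a larger fall with HFD in the absence of p110α, and a positive one the reverse. The members were the 24 arrays of fed mice, 4 groups of 6, chosen by the genotype, diet and nutritional state in their titles out of 48 liver arrays, and each array carried the RNA of 1 male mouse. LWT mice (p110α hep+/+) had both floxed alleles of Pik3ca, the gene of p110α, and no Cre, while LKO mice (p110α hep-/-) had the same floxed alleles and 1 copy of Cre under the albumin promoter, which removes part of the gene in hepatocytes. Each genotype received control diet (CTRL) or HFD with 60% of its calories from fat for 12 weeks, starting at 12 weeks of age. Fed mice ate ad libitum and were killed at zeitgeber time 16, in the dark phase. The other 24 arrays are of mice fasted for 24 h before the same time. Since albumin drives Cre, the deletion was meant to spare other liver cells and to precede the diet, and neither was measured here. Whole liver was measured, so that fewer cells of a type and less RNA per cell cannot be told apart.

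p110α is a catalytic subunit of the class IA PI 3-kinases, which pass on the insulin signal in hepatocytes through PIP3 and the kinase AKT. AKT activates SREBP1c, which turns on fatty acid synthesis, and keeps FOXO1 out of the nucleus, which turns off genes such as Igfbp1. HFD feeding of mice leads to obesity, high plasma insulin and fat accumulation in the liver.

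The promoters below belong to Hamp2, the gene with the largest interaction, to its neighbour Hamp, and to genes of the fatty acid synthesis and cell cycle lists, and they are shown for the motifs these genes share or lack. Each is the 250 bases before the gene start in RefSeq (GRCm38.p6), 5′ to 3′ on the strand of the gene. Hamp2 (chr7:30924182-30924431, minus strand) and Hamp (chr7:30944030-30944279, minus strand) are neighbouring copies of the hepcidin gene. Their promoters were identical in 227 of 253 alignment columns (89.7%). Capitals mark GGCGCC, the core of a BMP-response element, which reads the same on both strands and was present in 9.59% of 32851 promoter windows. It was found in Hamp, starting 109 bases before the gene start, and not in Hamp2.
Hamp2: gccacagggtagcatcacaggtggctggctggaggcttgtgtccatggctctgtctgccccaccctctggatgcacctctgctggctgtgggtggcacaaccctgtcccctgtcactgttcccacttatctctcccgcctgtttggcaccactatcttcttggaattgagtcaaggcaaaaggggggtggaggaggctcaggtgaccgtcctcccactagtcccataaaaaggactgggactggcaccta
Hamp: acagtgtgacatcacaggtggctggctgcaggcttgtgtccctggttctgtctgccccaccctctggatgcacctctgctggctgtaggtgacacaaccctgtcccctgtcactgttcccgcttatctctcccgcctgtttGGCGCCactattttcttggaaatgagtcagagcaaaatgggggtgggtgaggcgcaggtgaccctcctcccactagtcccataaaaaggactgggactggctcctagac
Fasn (chr11:120824548-120824797, minus strand), Mki67 (chr7:135716380-135716629, minus strand) and Top2a (chr11:99024190-99024439, minus strand) are shown for CCAAT, the letters bound by NF-Y, with each match on either strand in capitals (ATTGG on the other strand). The motif was present in 33.8% of the windows.
Fasn: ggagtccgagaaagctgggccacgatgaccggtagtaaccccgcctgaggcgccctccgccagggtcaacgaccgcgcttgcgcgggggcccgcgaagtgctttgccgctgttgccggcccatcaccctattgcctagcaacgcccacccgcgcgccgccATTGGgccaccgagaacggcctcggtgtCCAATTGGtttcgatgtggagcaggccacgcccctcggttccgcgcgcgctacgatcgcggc
Mki67: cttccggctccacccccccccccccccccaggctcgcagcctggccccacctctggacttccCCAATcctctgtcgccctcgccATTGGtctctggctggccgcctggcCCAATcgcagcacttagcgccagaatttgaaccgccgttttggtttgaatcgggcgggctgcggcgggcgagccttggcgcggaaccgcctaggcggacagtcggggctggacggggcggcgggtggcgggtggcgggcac
Top2a: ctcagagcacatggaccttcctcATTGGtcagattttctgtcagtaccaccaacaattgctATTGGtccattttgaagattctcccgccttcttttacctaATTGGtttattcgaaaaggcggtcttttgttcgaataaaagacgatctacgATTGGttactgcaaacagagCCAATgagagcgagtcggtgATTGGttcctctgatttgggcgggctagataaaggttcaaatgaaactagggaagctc
Fasn held 3 matches, of which 2 overlap, Mki67 held 3 and Top2a held 6. Cdc20 and Aurka held 2 each and Plk1 held 1. Of the genes with a window in the table, 19 of 24 genes of the cell cycle list held CCAAT, as did 16 of 16 of the cholesterol synthesis list and 14 of 21 of the fatty acid synthesis list. Of called genes with a window, CCAAT was in 5 of 5 of the cell cycle, 2 of 2 of the cholesterol synthesis and 4 of 8 of the fatty acid synthesis list. TTTGAA, the cell cycle homology letters, was in 6 of the 24 cell cycle genes against 16% of all windows. Other motifs were searched too. TCACNCCAC was in 1 of 21 fatty acid and 1 of 16 cholesterol synthesis genes (1.05% of windows), and CACGTG in 4 of 21 and 4 of 16 (6.02%). TGACNNNGC was in 6 of 23 NRF2 target and metallothionein genes (10.2%), and in 0 of the 4 called. A gene counted if any of its windows held the motif, so the shares of genes and of windows differ in unit. These are matches of letters, with no binding measured.

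Between 50.1% and 57.4% of the probes were well above background on the 24 arrays, the median spot signal was 53 to 71, and no spot was saturated. The mean log2 signal of the 10 hepatocyte markers was 16.73 to 16.89 in LWT CTRL, 16.61 to 16.83 in LWT HFD, 16.95 to 17.04 in LKO CTRL and 16.90 to 17.15 in LKO HFD. Every LKO array was thus above every LWT array. By mean squared distance to the group means, 22 of the 24 arrays lay nearest to their own group. Replicate 3 of LKO HFD lay nearest to LKO CTRL and had the lowest array weight in the fit (0.354), and replicate 2 of LWT CTRL also lay nearest to LKO CTRL. The Pik3ca probe gave 12.89 ± 0.11 (SD, n = 6) in LWT CTRL and 13.23 ± 0.11 (SD, n = 6) in LKO CTRL, so the signal was not lower in LKO CTRL. This probe starts at base 6255 of its transcript, away from the deleted exons, and does not check the deletion. The interaction of Pik3ca was 0.19 (95% interval -0.04 to 0.42) and did not pass the test (adjusted p = 0.396).

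Each gene was read from its brightest probe and counted as called if limma gave the interaction an adjusted p up to 0.05 and its size passed 1.5-fold. Of 20486 genes, 275 were called (1.34%). The interaction was negative for 212 of them (1.03% of all genes) and positive for 63 (0.308%). Over all genes the median interaction was 0.01, and 47.6% were negative. The negative calls had a median HFD effect of 0.68 in LWT and -0.17 in LKO, on the log2 scale. The positive calls had a median HFD effect of -0.48 in LWT and 0.34 in LKO. HFD effects of opposite sign were seen for 123 of the negative and 37 of the positive calls. Selection on the difference between the HFD effects favours such signs and such medians, and the share over all genes was not computed. The sign of an effect near 0 is also uncertain, as for Col1a2 in LKO, at -0.01 ± 0.20 (SE of the limma fit).

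**Figure D1:**
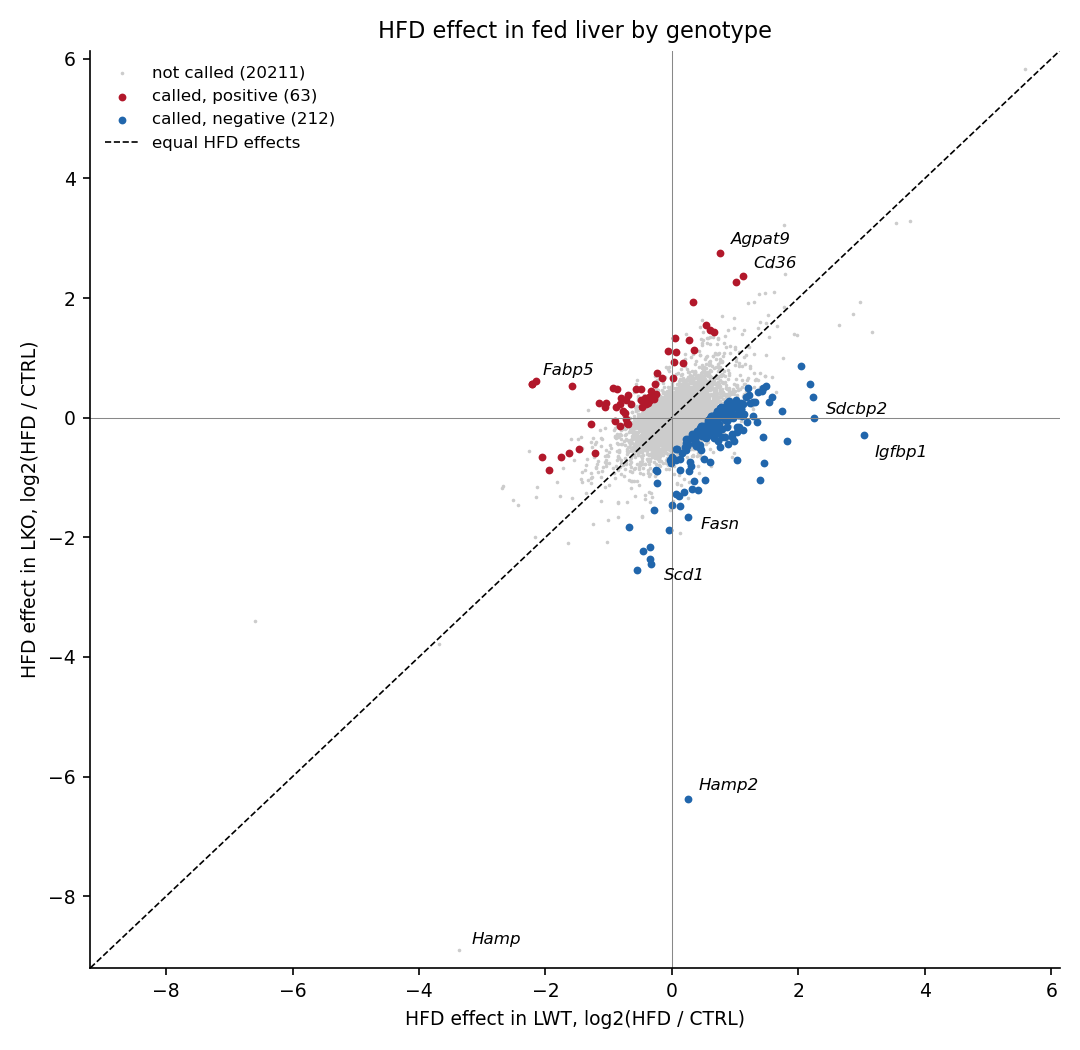
HFD effect on each of 20486 genes in fed LWT mice (horizontal axis) and fed LKO mice (vertical axis), both as log2 of HFD over CTRL. Points away from the dashed line of equal effects have an interaction, 212 called genes lie below it, and their median HFD effect is 0.68 in LWT and -0.17 in LKO.

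The interaction can come from any of the 4 groups. For each called gene, the group whose removal left the closest means of the other groups was taken as the one that stands apart. The sign of the interaction then sets whether that group is the highest or the lowest. Among the negative calls this was LWT HFD for 152 genes, LKO HFD for 43, LWT CTRL for 9 and LKO CTRL for 8. The separation was clear, with the other 3 means spread over less than 0.5 of the distance to that group, for 100, 22, 2 and 2 of these. Among the positive calls it was LWT HFD for 25 genes, LWT CTRL for 16, LKO HFD for 11 and LKO CTRL for 11, and clear for 12, 6, 5 and 3. These counts, and the median HFD effects above, include 40 negative and 5 positive calls near background in at least 1 fed group. For such genes the group that stands apart can be the one through which they passed the filter, as described below. All 275 had the same sign in both washing batches of 3 slides, which their selection over both batches together favours. Within a batch, with 3 mice per group, 154 genes were called in the one and 4 in the other. Without replicate 3 of LKO HFD, 347 genes were called, 80 positive and 267 negative, of which 270 were among the 275. The count fell to 170 without replicate 5 of LKO CTRL, 178 without replicate 3 of LKO CTRL and 179 without replicate 6 of LWT HFD, and 123 of the 275 were called in all 24 fits that left out 1 array.

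In what follows, the level of a gene in a group is given as the lowest, the median and the highest normalized log2 signal of its 6 arrays. HFD effects and interactions are log2 differences, and the error is the SE of the limma fit. Every adjusted p comes from that fit, after Benjamini–Hochberg correction over the 30793 probes kept by the filter on background.

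Genes of fatty acid synthesis had the most negative median of the 35 gene lists (-0.65) when all arrays were used. Without replicate 3 of LKO HFD its median was -0.60, against -0.65 for cholesterol synthesis and -0.62 for cell cycle genes. The interaction was called negative for 9 of 24 members, positive for none, and was below 0 for 21 (against 1.03% of all genes called negative and 47.6% below 0). In LWT the median HFD effect of the list was -0.12, and in LKO it was -0.78. Within the washing batches the median was -0.88 and -0.46. The mean level of the list lay between 13.04 and 13.89 in LWT CTRL, between 13.20 and 13.81 in LWT HFD, between 12.42 and 13.21 in LKO CTRL, and between 11.55 and 12.00 in LKO HFD. LKO HFD thus lay below every array of the other 3 groups.

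Fasn, fatty acid synthase, was at 16.53, 17.37 and 17.70 in LWT CTRL, 17.05, 17.62 and 17.94 in LWT HFD, 16.25, 16.63 and 16.98 in LKO CTRL, and 14.25, 14.87 and 15.42 in LKO HFD. Every LKO HFD array was below all others, and the LWT groups overlapped. The HFD effect on Fasn was 0.25 in LWT and -1.65 in LKO, an interaction of -1.90 ± 0.28, or 3.74-fold (adjusted p = 6.33e-05). Scd1, the desaturase that makes monounsaturated fatty acids, was at 16.92, 17.40 and 17.53 in LWT CTRL, 16.23, 17.13 and 17.37 in LWT HFD, 16.12, 16.87 and 17.18 in LKO CTRL, and 14.01, 14.27 and 15.72 in LKO HFD. LKO HFD was again below all other arrays, and its highest value was that of replicate 3. The interaction of Scd1 was -2.11 ± 0.35 (adjusted p = 0.000336), and -2.21 without that array. Acacb, the acetyl-CoA carboxylase whose product restrains mitochondrial fatty acid oxidation, was at 13.32, 13.68 and 14.05 in LWT CTRL, 13.09, 13.40 and 13.65 in LWT HFD, 11.89, 12.13 and 13.35 in LKO CTRL, and 9.45, 10.15 and 11.28 in LKO HFD. LKO CTRL lay below LWT CTRL apart from its highest array, and LKO HFD lay below all other arrays. Its interaction was -2.01 ± 0.39 (adjusted p = 0.00227), with -2.92 and -1.07 in the washing batches. A pair of dimmer probes of Acacb gave -0.02 and -0.01 and were not called.

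The other called members had smaller interactions. They were -1.605 for Me1, the malic enzyme that supplies NADPH, -1.44 for the elongase Elovl6, -1.25 for Acly, which makes cytosolic acetyl-CoA, -1.17 for Acaca, -1.15 for the acetoacetyl-CoA synthetase Aacs and -0.76 for the mitochondrial acyltransferase Gpam. For Acly the shape differed from that of Fasn. It was at 14.32, 15.28 and 15.59 in LWT CTRL, 15.70, 15.93 and 16.37 in LWT HFD, 13.98, 14.18 and 14.90 in LKO CTRL, and 13.45, 13.77 and 14.08 in LKO HFD, with HFD effects of 0.76 in LWT and -0.49 in LKO. LWT HFD was above all other arrays. Gpam, the least secure of these, was called in 8 of 24 fits that left out 1 array, and Fasn, Scd1, Acacb, Me1, Elovl6, Acly and Acaca in all 24. When a gene was read as the median of its probes, Acaca had -0.57, under the fold threshold, and its dimmer probes lay between -1.10 and -0.36. Srebf1, the gene of SREBP1, had an interaction of 0.26 (adjusted p = 0.708). Scd3, a close relative of Scd1 with which it may share signal, was not on the list and had -1.98 ± 0.38 (adjusted p = 0.00159), and -0.41 on a second probe.

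**Figure D2:**
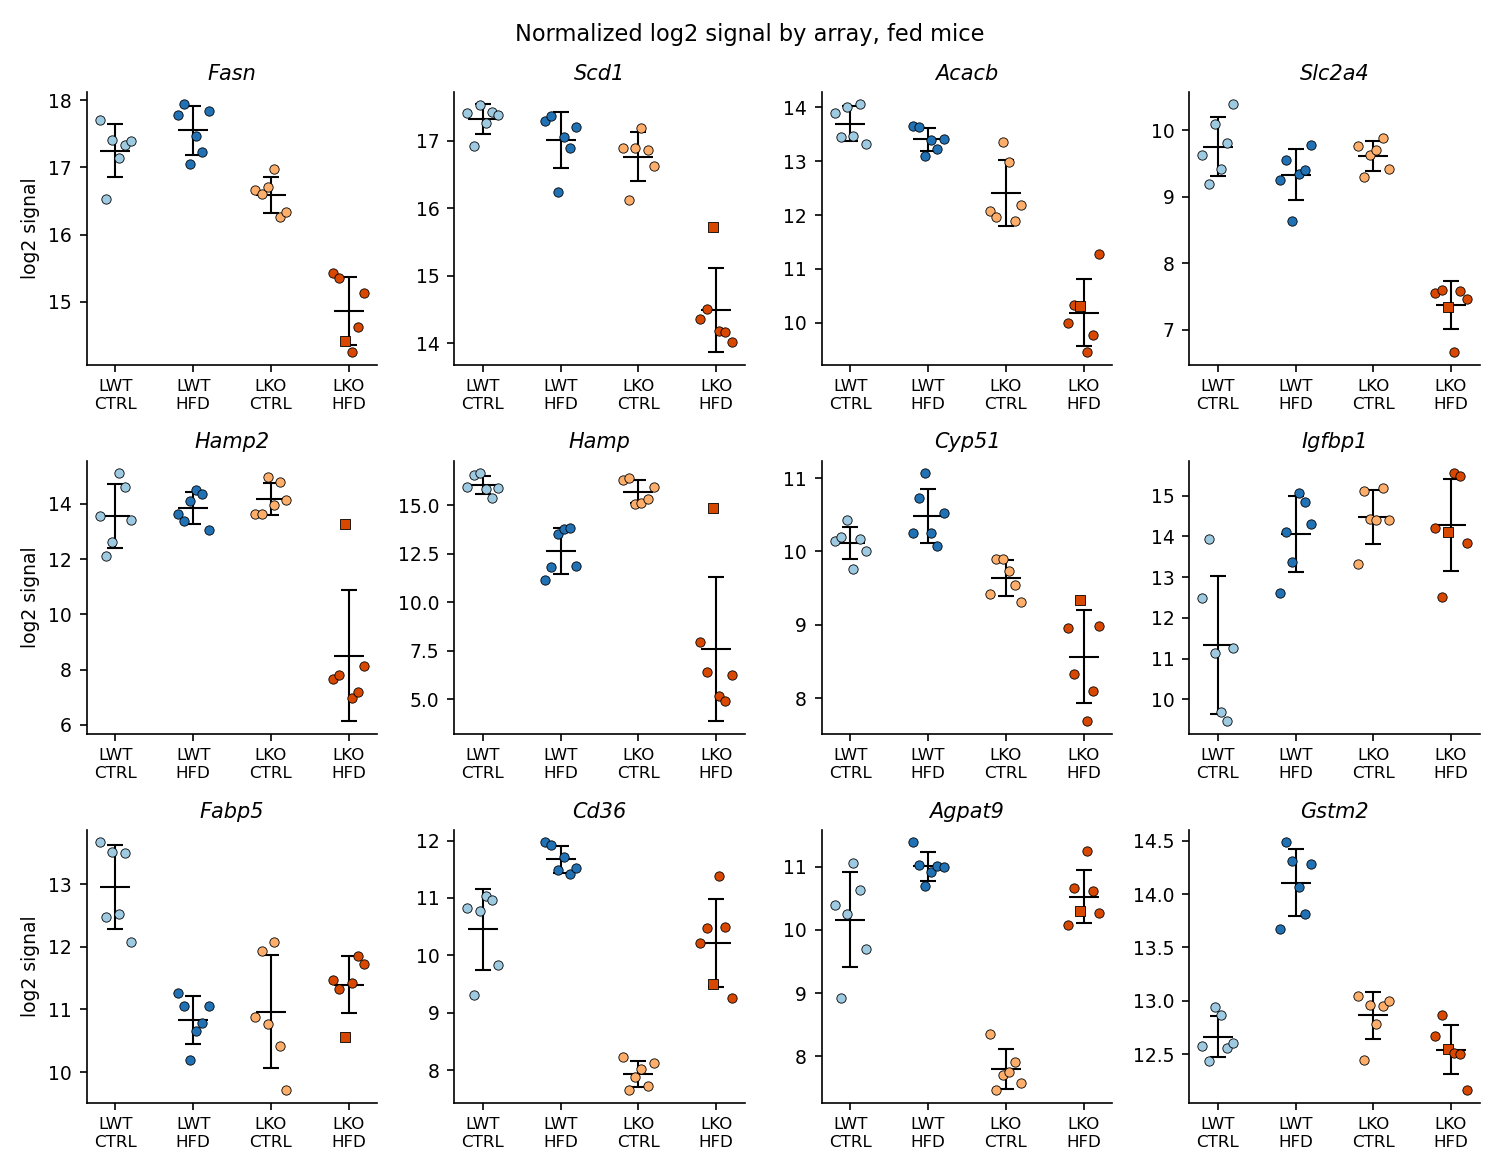
Normalized log2 signal of 12 genes on the 24 arrays of fed mice. Each symbol is 1 mouse, the bars are the mean and SD of 6, the square is replicate 3 of LKO HFD, and the vertical axes differ and do not start at 0. Fasn, Scd1, Acacb, Slc2a4 and Cyp51 have their lowest mean in LKO HFD, and Gstm2 is highest in LWT HFD.

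In cholesterol synthesis and uptake, the median was -0.61 and 21 of 24 members were below 0 (47.6% of all genes), and 3 were called, all negative (1.03% of all genes). Within the washing batches the median was -0.80 and -0.44. Cyp51, the lanosterol demethylase, was at 9.76, 10.16 and 10.42 in LWT CTRL, 10.08, 10.39 and 11.06 in LWT HFD, 9.32, 9.64 and 9.90 in LKO CTRL, and 7.68, 8.64 and 9.34 in LKO HFD. LKO HFD overlapped LKO CTRL at its highest array and lay below both LWT groups. The HFD effect on Cyp51 was 0.32 in LWT and -1.20 in LKO, an interaction of -1.51 ± 0.28 (adjusted p = 0.0013), with -1.90 and -1.26 in the washing batches. Pmvk, phosphomevalonate kinase, had -0.76 ± 0.19 (adjusted p = 0.022). Sqle, squalene epoxidase, was not called and had -0.93 (adjusted p = 0.444). Without replicate 3 of LKO HFD, 6 of the 24 were called. The number called was 2 without replicate 3 of LKO CTRL or replicate 6 of LWT HFD and reached 7 without replicate 5 of LWT HFD, while the median stayed between -0.72 and -0.55.

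Hamp2 had the largest interaction of the 275. Hepcidin, the product of Hamp, is a hepatocyte hormone that lowers iron export into the blood. Hamp2 was at 12.10, 13.49 and 15.11 in LWT CTRL, 13.05, 13.87 and 14.50 in LWT HFD, 13.63, 14.06 and 14.99 in LKO CTRL, and 6.97, 7.73 and 13.28 in LKO HFD. In LKO HFD, 5 of 6 mice were below every other fed mouse by over 3 on the log2 scale, and replicate 3, at 13.28, was at the level of the other groups. The interaction was -6.62 ± 1.19 (adjusted p = 0.001), and -6.96 without that array (adjusted p = 0.000264). Hamp was at 15.41, 15.93 and 16.66 in LWT CTRL, 11.14, 12.69 and 13.82 in LWT HFD, 15.10, 15.64 and 16.43 in LKO CTRL, and 4.88, 6.32 and 14.86 in LKO HFD. The HFD arrays lay below the CTRL arrays in both genotypes, and in LKO HFD the probe was well above background on 4 of 6 arrays. Its interaction was -5.52 ± 1.65, partly against signal near background, and missed the threshold (adjusted p = 0.057). Without replicate 3 the interaction of Hamp passed (adjusted p = 0.0233). That size is not given, because fewer arrays well above background were left in LKO HFD. The probe of Hamp2 lies at chr7:31707520-31707579 and that of Hamp at chr7:31727490-31727549 (mm9), and signal shared between such close copies cannot be told apart. None of the other 21 measured genes of the iron list was called. Bmp6, the liver ligand that induces hepcidin, had 0.37 (adjusted p = 0.2), its target Id1 0.18 (adjusted p = 0.871), and the iron exporter gene Slc40a1 0.30 (adjusted p = 0.399).

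Of 31 genes of the insulin, PI3K and FOXO list, 2 were called, in opposite directions, against 1.34% of all genes called in either. Igfbp1, a FOXO1 target whose product binds insulin-like growth factors, was at 9.46, 11.21 and 13.93 in LWT CTRL, 12.61, 14.20 and 15.07 in LWT HFD, 13.32, 14.42 and 15.19 in LKO CTRL, and 12.52, 14.16 and 15.55 in LKO HFD. LWT CTRL was the lowest group and varied most, and the other 3 overlapped. The HFD effect on Igfbp1 was 3.04 in LWT and -0.28 in LKO, an interaction of -3.32 ± 0.65 (adjusted p = 0.00227). Igfbp2, another secreted binding protein, was at 12.82, 13.19 and 13.65 in LWT CTRL, 11.42, 12.39 and 12.62 in LWT HFD, 15.12, 15.34 and 15.74 in LKO CTRL, and 15.49, 15.56 and 16.15 in LKO HFD. The genotypes did not overlap on either diet, and LKO was higher. LWT HFD lay below LWT CTRL, and LKO HFD overlapped LKO CTRL, with an interaction of 1.13 ± 0.26 (adjusted p = 0.0134). Irs2 had -0.43 (adjusted p = 0.605), Insr 0.17 (adjusted p = 0.425) and Foxo1 -0.11 (adjusted p = 0.821). The kinase subunit genes Pik3cb, Pik3cd, Pik3r1, Pik3r2 and Pik3r3 lay between -0.18 and 0.28, and none was called.

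Among genes of glucose handling, 3 were called, all negative (against 1.03% of all genes). Slc2a4, the gene of the insulin-responsive glucose transporter GLUT4, was at 9.20, 9.72 and 10.39 in LWT CTRL, 8.64, 9.38 and 9.78 in LWT HFD, 9.30, 9.67 and 9.88 in LKO CTRL, and 6.66, 7.51 and 7.60 in LKO HFD. Every LKO HFD array was below every other array, by at least 1 on the log2 scale, and the other 3 groups overlapped. The interaction was -1.77 ± 0.30 (adjusted p = 0.000426). Ppp1r3g, a subunit that directs protein phosphatase 1 to glycogen, was at 6.62, 8.24 and 9.42 in LWT CTRL, 7.69, 8.20 and 8.56 in LWT HFD, 7.98, 8.55 and 9.57 in LKO CTRL, and 6.00, 6.83 and 7.92 in LKO HFD. LKO HFD was low but overlapped the other groups, and the interaction was -1.82 ± 0.44 (adjusted p = 0.0188), called in 22 of 24 fits that left out 1 array. Tkt, transketolase of the pentose phosphate pathway, had -0.74 ± 0.16 (adjusted p = 0.00632), while a probe of Tkt near background gave 0.12. The remaining 21 of 23 genes of glycolysis and the pentose phosphate pathway and 17 of 18 genes of gluconeogenesis and glycogen were not called. Pck1 had -0.64 (adjusted p = 0.251) and G6pc -0.68 (adjusted p = 0.225), the rate-limiting and the last enzyme of gluconeogenesis.

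In the list of lipid uptake and droplet genes, 5 of 30 were called, all positive, against 0.308% of all genes. Without the fold threshold, 6 passed with a positive and 2 with a negative interaction (0.962% and 1.87% of all genes). The median of the list was 0.07, and 2 genes were called without replicate 6 of LWT HFD or replicate 2 of LKO HFD. Fabp5, a fatty acid binding protein, was at 12.08, 13.003 and 13.67 in LWT CTRL, 10.20, 10.92 and 11.26 in LWT HFD, 9.71, 10.83 and 12.08 in LKO CTRL, and 10.57, 11.45 and 11.86 in LKO HFD. LWT CTRL was highest, with its lowest array at the level of the highest LKO CTRL array, and the other 3 groups overlapped. The HFD effect on Fabp5 was -2.21 in LWT and 0.57 in LKO, an interaction of 2.78 ± 0.41 or 6.85-fold (adjusted p = 6.33e-05). Cd36, the fatty acid translocase, was at 9.31, 10.80 and 11.03 in LWT CTRL, 11.41, 11.62 and 11.97 in LWT HFD, 7.65, 7.96 and 8.23 in LKO CTRL, and 9.25, 10.35 and 11.38 in LKO HFD. Here LKO CTRL was the lowest group without overlap, and LWT HFD the highest, also without overlap. The HFD effect was 1.12 in LWT and 2.36 in LKO, and the interaction was 1.24 ± 0.35 (adjusted p = 0.0425). It was called in 9 of 24 fits that left out 1 array, with values between 1.03 and 1.46. Fitm1, which takes part in droplet formation, had 1.02 ± 0.26 (adjusted p = 0.0232), the transport protein gene Slc27a1 0.81 ± 0.17 (adjusted p = 0.00544) and the droplet enzyme gene Hsd17b11 0.70 ± 0.18 (adjusted p = 0.0222). Droplet coat genes gave -0.36 for Plin2 (adjusted p = 0.505), -0.56 for Cidea (adjusted p = 0.739) and -0.54 for Cidec (adjusted p = 0.707).

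Agpat9, now named Gpat3, encodes an enzyme of the first step of triglyceride synthesis and was the 1 call among 19 glycerolipid genes (0.308% of all genes were called positive). It was at 8.93, 10.32 and 11.06 in LWT CTRL, 10.69, 11.003 and 11.38 in LWT HFD, 7.46, 7.74 and 8.36 in LKO CTRL, and 10.07, 10.46 and 11.24 in LKO HFD. LKO CTRL was below all other arrays, and LKO HFD overlapped both LWT groups. The HFD effect was 0.77 in LWT and 2.76 in LKO, an interaction of 1.99 ± 0.31 (adjusted p = 0.000102), and a dimmer probe of the gene gave 1.06. Vnn1, a pantetheinase and PPARα target, was at 10.40, 11.42 and 11.70 in LWT CTRL, 12.14, 12.23 and 12.45 in LWT HFD, 8.34, 9.16 and 9.77 in LKO CTRL, and 10.09, 11.38 and 11.92 in LKO HFD. LKO CTRL was again the lowest group without overlap. Its interaction was 1.27 ± 0.32 (adjusted p = 0.022). Vnn1 and Ucp2 were the 2 calls among 39 fatty acid oxidation genes, against 1.34% of all genes. Of the 39, 4 were below 0, against 47.6% of all genes, and the median was 0.19. The PPARα targets Cyp4a10, at 1.06 (adjusted p = 0.0841), and Cpt1a, at 0.21 (adjusted p = 0.447), were not called. Ucp2, a mitochondrial carrier, was at 8.33, 8.37 and 8.40 in LWT CTRL, 9.01, 9.31 and 9.51 in LWT HFD, 8.16, 8.22 and 8.47 in LKO CTRL, and 8.08, 8.36 and 8.62 in LKO HFD. LWT HFD was above all other arrays, and the interaction was -0.94 ± 0.14 (adjusted p = 6.33e-05).

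**Figure D3:**
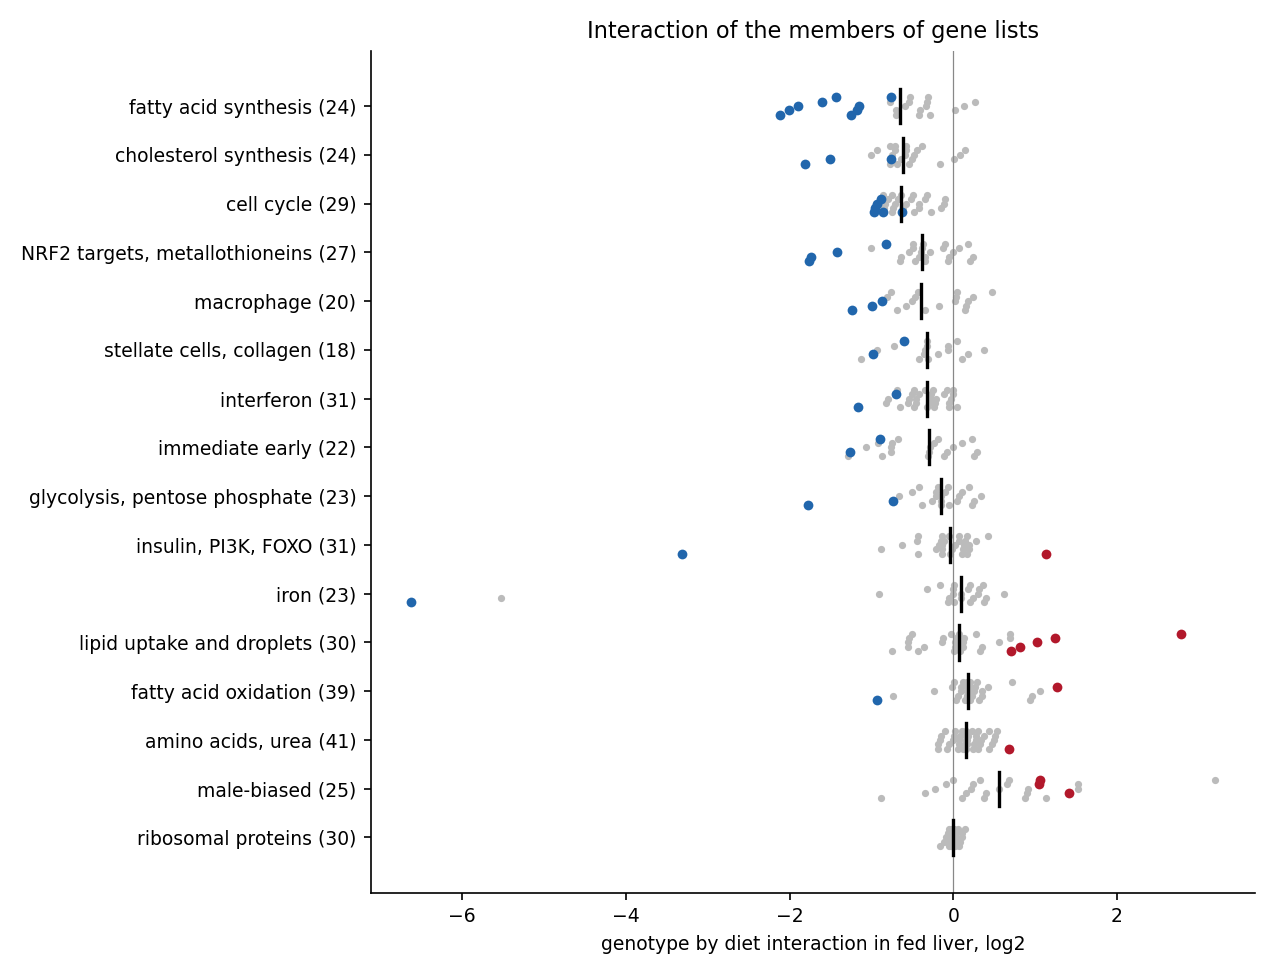
Interaction in fed liver (horizontal axis, log2) of the members of 16 gene lists, with the number of genes measured in brackets. Blue points are called negative, red points called positive, grey points not called, and the black bar is the median. Fatty acid synthesis, cholesterol synthesis and cell cycle genes have medians from -0.65 to -0.61, and ribosomal protein genes lie close to 0.

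Among 27 NRF2 target and metallothionein genes, 4 were called, all negative, and 22 were below 0, with a median of -0.38 (of all genes, 1.03% were called negative and 47.6% were below 0). Gstm2, a glutathione S-transferase, was at 12.44, 12.59 and 12.94 in LWT CTRL, 13.68, 14.17 and 14.48 in LWT HFD, 12.45, 12.96 and 13.04 in LKO CTRL, and 12.16, 12.53 and 12.87 in LKO HFD. LWT HFD was above all other arrays, and the other groups overlapped. The HFD effect was 1.44 in LWT and -0.32 in LKO, an interaction of -1.76 ± 0.24 (adjusted p = 3.79e-05). Gsta2 had -1.74 ± 0.45 (adjusted p = 0.0271), Cbr3, a carbonyl reductase, -1.43 ± 0.25 (adjusted p = 0.000679), and Gstm3 -0.82 ± 0.19 (adjusted p = 0.0135). Gsta2 was called in 15 of 24 fits that left out 1 array. LWT HFD had the highest mean for each. Glutathione S-transferases form families of similar sequence, so signal of one on the probe of another cannot be told apart. Nqo1 had -0.47 (adjusted p = 0.323), Gclc -0.35 (adjusted p = 0.387) and Hmox1 -0.07 (adjusted p = 0.893). Leaving out 1 array gave between 3 calls in the list, without replicate 5 of LWT CTRL, and 7, without replicate 3 of LWT CTRL.

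All 29 measured cell cycle genes had an interaction below 0, with a median of -0.64, and 6 were called (20.7%, against 1.03% of all genes called negative). The median was -0.75 and -0.43 within the washing batches. The mean level of the list lay between 8.499 and 9.20 in LWT HFD, above the other groups except for 1 LKO HFD array at 8.66. It lay between 7.91 and 8.30 in LWT CTRL, 7.86 and 8.47 in LKO CTRL, and 8.07 and 8.66 in LKO HFD. Mki67, a marker of dividing cells, was at 6.999, 7.202 and 7.41 in LWT CTRL, 8.12, 8.44 and 9.07 in LWT HFD, 6.86, 7.33 and 8.13 in LKO CTRL, and 7.60, 7.73 and 8.49 in LKO HFD. LWT HFD was highest, and 1 LKO CTRL array and 1 LKO HFD array reached its range. The HFD effect was 1.45 in LWT and 0.49 in LKO, an interaction of -0.95 ± 0.22 (adjusted p = 0.0145). Top2a, a topoisomerase of dividing cells, had -0.93 ± 0.23 (adjusted p = 0.0182). The mitotic kinase genes Plk1 and Aurka had -0.89 ± 0.17 (adjusted p = 0.00177) and -0.86 ± 0.21 (adjusted p = 0.0206), Cdc20, an activator of the anaphase-promoting complex, had -0.96 ± 0.28 (adjusted p = 0.0487), and the transcription factor gene Foxm1, well above background on 2 of 6 LWT CTRL and 3 of 6 LKO CTRL arrays, was called negative (adjusted p = 0.0311). Second probes of Top2a and Cdc20 gave -0.49 and -0.50 and were not called (adjusted p = 0.118 and 0.272). Cdc20 was called in 11 and Foxm1 in 16 of 24 fits that left out 1 array, and under 2 of 13 and 3 of 12 alternatives of the processing. The count of called genes was 2 without replicate 6 of LWT HFD, 3 without replicate 5 of LKO CTRL, and between 4 and 9 without any other array.

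Negative interactions were also called among markers of other liver cells. Of 20 macrophage markers, 3 were called, all negative (15%, against 1.03% of all genes called negative). The median was -0.39, and 12 of 20 were below 0 (against 47.6% of all genes). Ccl2, a chemokine that draws monocytes, was at 7.02, 7.62 and 8.40 in LWT CTRL, 8.60, 9.23 and 9.77 in LWT HFD, 6.95, 7.32 and 7.73 in LKO CTRL, and 7.31, 7.57 and 9.62 in LKO HFD. LWT HFD was above every other array except replicate 3 of LKO HFD, at 9.62. Its interaction was -1.23 ± 0.33 (adjusted p = 0.0311), and -1.36 without that array (adjusted p = 0.00677). Ly6c2, a monocyte marker, had -0.99 ± 0.23 (adjusted p = 0.0134), and the galectin gene Lgals3 -0.87 ± 0.22 (adjusted p = 0.0244). Resident macrophage markers gave 0.18 for Clec4f (adjusted p = 0.675), 0.23 for Timd4 (adjusted p = 0.735) and 0.02 for Adgre1 (adjusted p = 0.987). The mean level of the macrophage list was 9.56 to 10.47 in LWT HFD, 9.60 to 9.90 in LWT CTRL, 9.23 to 9.66 in LKO CTRL and 9.38 to 10.17 in LKO HFD, where the highest value was that of replicate 3. The number of called markers was 1 without replicate 5 of LWT CTRL, replicate 3 or 5 of LKO CTRL, or replicate 2 or 5 of LKO HFD, and 6 without replicate 3 of LWT HFD.

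Of 18 stellate cell and collagen genes, 2 were called, both negative (against 1.03% of all genes), and the median was -0.32. Col1a2, a chain of type I collagen, was at 10.28, 11.04 and 11.44 in LWT CTRL, 11.59, 11.89 and 12.43 in LWT HFD, 10.45, 10.70 and 11.21 in LKO CTRL, and 10.40, 10.70 and 11.54 in LKO HFD. LWT HFD was just above all other arrays, and the interaction was -0.98 ± 0.27 (adjusted p = 0.0414). Col5a1 had -0.60 ± 0.16 (adjusted p = 0.0299), Col1a1 -1.13 (adjusted p = 0.0835) and Acta2, a marker of activated stellate cells, 0.18 (adjusted p = 0.444). These calls were fragile, since none was left without replicate 3 or 6 of LWT CTRL, replicate 1 of LWT HFD, replicate 3 or 5 of LKO CTRL, or replicate 1 or 6 of LKO HFD. Without replicate 1 or 4 of LWT CTRL, 4 genes were called. None of 12 endothelial, 16 lymphoid and neutrophil or 9 adipocyte markers was called. The part that cell composition has in the calls of cell cycle, macrophage and collagen genes was not tested.

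**Figure D4:**
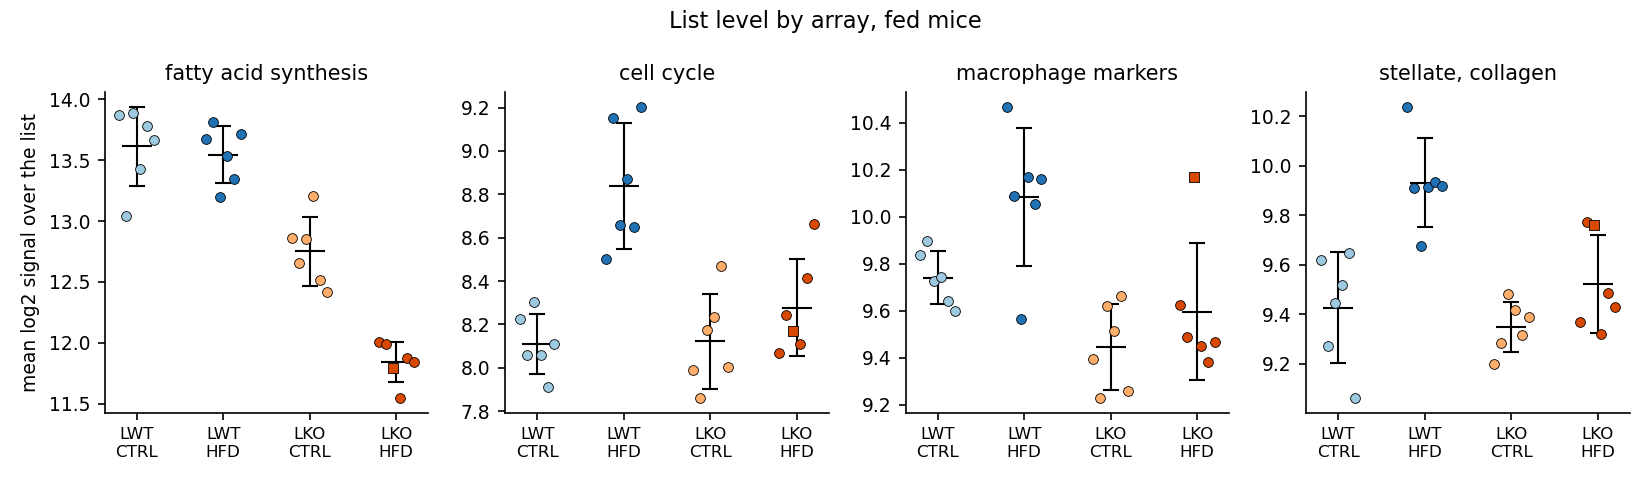
Mean normalized log2 signal over the members of 4 gene lists on each array of fed mice (vertical axes differ and do not start at 0). Symbols are mice, bars are the mean and SD of 6, and the square is replicate 3 of LKO HFD. LKO HFD is lowest for fatty acid synthesis, and LWT HFD has the highest mean for the other 3 lists.

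Interferon-induced genes had 2 negative calls of 31 (1.03% of all genes), and 30 were below 0 (47.6% of all genes), with a median of -0.32. These were Gbp6, a guanylate-binding protein gene, with -1.17 ± 0.25 (adjusted p = 0.00614), and Oasl2 with -0.70 ± 0.20 (adjusted p = 0.0425), which was called in 9 of 24 fits that left out 1 array. Immediate early genes had 2 negative calls of 22 (1.03% of all genes). Of these, Klf6, a transcription factor gene, was at 8.96, 9.25 and 9.49 in LWT CTRL, 9.78, 10.24 and 10.38 in LWT HFD, 8.85, 9.31 and 9.46 in LKO CTRL, and 9.02, 9.28 and 10.22 in LKO HFD. LWT HFD was above all others but replicate 3 of LKO HFD, and the interaction was -0.89 ± 0.16 (adjusted p = 0.00104). Nupr1, a stress response gene, had -0.89 ± 0.24 (adjusted p = 0.0326; a dimmer probe gave 0.15) and was the 1 call among 23 genes of the integrated stress response (1.03% of all genes were called negative). Atf4 had -0.10 (adjusted p = 0.754) and Fgf21 -0.58 (adjusted p = 0.387).

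The highest list median was that of male-biased genes, 0.55, where 3 of 25 were called, all positive (0.308% of all genes), and 5 were below 0 (47.6% of all genes). Mup11, of the major urinary proteins, was at 11.72, 11.95 and 12.87 in LWT CTRL, 10.098, 10.92 and 12.39 in LWT HFD, 11.39, 11.89 and 12.64 in LKO CTRL, and 11.50, 12.01 and 12.95 in LKO HFD. LWT HFD had the lowest mean but overlapped the other groups, and the interaction was 1.41 ± 0.37 (adjusted p = 0.0299). Major urinary protein genes are near-identical, so this value may belong to several of them. C8b, a subunit of complement component 8, was at 13.40, 13.52 and 14.41 in LWT CTRL, 11.40, 11.68 and 12.05 in LWT HFD, 13.69, 13.98 and 14.26 in LKO CTRL, and 12.72, 12.99 and 13.98 in LKO HFD. LWT HFD was below all other arrays. The HFD effect on C8b was -1.94 in LWT and -0.88 in LKO, an interaction of 1.06 ± 0.26 (adjusted p = 0.0185). Susd4, a complement regulator gene, had 1.05 ± 0.30 (adjusted p = 0.0486), and was called in 8 of 24 fits that left out 1 array. Hsd3b5 had 3.19 (adjusted p = 0.0833), with LWT HFD levels of 5.46 to 7.25. Among 42 acute phase and complement genes, C8b and Saa4, with 0.99 ± 0.26 (adjusted p = 0.0285), were the 2 calls (1.34% of all genes). Cps1, the first enzyme of the urea cycle, was the 1 call of 41 amino acid and urea genes (1.34% of all genes), of which 8 were below 0 (47.6% of all genes), with 0.68 ± 0.18 (adjusted p = 0.0337). Cps1 was also the 1 call of the 10 hepatocyte markers (1.34% of all genes). Sox9, a bile duct marker, had 0.63 ± 0.18 (adjusted p = 0.0495) and was the 1 call of 8 (0.308% of all genes). Saa4, Cps1, Mup11 and Sox9 were called in 18, 15, 15 and 9 of those 24 fits, and Susd4 and Sox9 under 5 and 3 of 13 alternatives of the processing.

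Rgs16, a regulator of G protein signalling, was at 11.18, 12.74 and 13.91 in LWT CTRL, 12.82, 14.39 and 14.91 in LWT HFD, 12.27, 13.04 and 14.17 in LKO CTRL, and 9.29, 12.19 and 13.29 in LKO HFD. The groups overlapped, with the highest mean in LWT HFD and the lowest in LKO HFD. The interaction was -2.44 ± 0.62 (adjusted p = 0.0237), with -1.22 and -3.27 in the washing batches. H2-Q1, of the class I MHC genes, was at 7.94, 8.93 and 9.75 in LWT CTRL, 9.47, 10.34 and 10.86 in LWT HFD, 7.63, 8.39 and 9.29 in LKO CTRL, and 7.32, 7.67 and 8.10 in LKO HFD. LWT HFD was the highest group, in part overlapping LWT CTRL, and LKO HFD overlapped LKO CTRL. The interaction was -2.21 ± 0.37 (adjusted p = 0.000437). Signal from other class I genes cannot be told apart on this probe. Among the positive calls outside the lists, Rarres1 had 1.43 ± 0.28 (adjusted p = 0.00228), Adam11 1.09 ± 0.26 (adjusted p = 0.0147) and Casc4 1.17 ± 0.21 (adjusted p = 0.00102). Each was called in all 24 fits that left out 1 array, and a second probe of Adam11 gave 0.20. Pax2, a developmental transcription factor gene, had 2.11 ± 0.58 (adjusted p = 0.0378), the transporter gene Slc35f2 1.596 ± 0.45 (adjusted p = 0.0448) and Parvb 1.28 ± 0.37 (adjusted p = 0.0497). These were called in 14, 9 and 12 of the 24 fits, and second probes of Pax2 and Parvb gave 0.16 and 0.14. Slc35f2 was well above background on 4 of 6 LKO CTRL arrays, so its size is uncertain. It lay between 1.15 and 2.80 under the alternatives of the processing. Of the 275, 33 carried placeholder names and were not described.

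Signals near background were treated apart. Of the 275, 45 were well above background on fewer than 4 of 6 arrays in at least 1 fed group, 40 negative and 5 positive. Sdcbp2 was at 5.24, 5.43 and 6.01 in LWT CTRL, 6.77, 7.74 and 9.43 in LWT HFD, 5.003, 5.13 and 5.51 in LKO CTRL, and 4.90, 5.24 and 5.48 in LKO HFD. It was well above background on all 6 LWT HFD arrays and on 1 or 2 of 6 in the other groups, and its interaction was called negative. For it and the other genes of this paragraph, the size of the interaction is not given. Egr2, the other called immediate early gene (adjusted p = 0.000801), and Ckap2 (adjusted p = 0.0378) were well above background on 3 of 6 LWT CTRL arrays, and both interactions were negative. Corin, a peptide-processing protease gene, was not well above background on any array of LWT CTRL or LKO CTRL. With the dimmest signal well above background as the bound in those groups, LWT HFD was at least 1.95-fold and at least 2.00-fold higher. Mab21l3 was not well above background in LKO CTRL or LKO HFD, and LWT HFD was at least 2.46-fold and at least 2.34-fold higher. Both interactions were called negative. Among the fed groups, Sdcbp2, Corin and Mab21l3 were well above background on 5 or more of 6 arrays in LWT HFD alone. They thus passed the filter through the group where they are high. Their HFD effect in LKO compares signals near background, so these tests decide nothing and their p is not given. Ces4a, a carboxylesterase gene, was not well above background in LWT HFD, and LWT CTRL was at least 2.27-fold higher (adjusted p of the interaction = 0.0167). The positive calls also held Ahsp, well above background on 6 of 6 LKO HFD arrays and 3 of 6 in each other fed group. Ahsp too passed the filter among fed mice through the group where it is high, and its p is not given. The pseudogene Cyp2c53-ps (adjusted p = 0.0409) was well above background on 1 of 6 LWT HFD and 4 of 6 LKO HFD arrays.

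No gene was called in 14 of the 35 lists. These held 28 hepatokines (without Igfbp1 and Igfbp2, which were on the insulin list), 36 CAR-regulated and xenobiotic, 27 bile acid and sterol export, 25 lipoprotein, 17 clock, 27 ER stress, 29 oxidative phosphorylation, 30 ribosomal protein, 20 pericentral and 23 female-biased genes, and markers of endothelial, lymphoid, adipose and of blood, muscle and pancreas cells. Without the fold threshold 2.83% of all genes passed (0.962% positive and 1.87% negative), and in these lists Apom and Mttp of the lipoprotein genes passed, with 0.45 and -0.36, as did Ndufb3 of the oxidative phosphorylation genes, with 0.34.

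The same interaction could be read in the 24 fasted mice, which share no animal with the fed groups. In fasted liver 379 genes were called (1.85%). Of these, 64 were among the 275, which is 23.3% of the fed calls and 16.9% of the fasted calls, and all 64 had the same sign. The sign was shared by 241 of the 275 (87.6%), against 57.2% of all genes. The difference between the fed and the fasted interaction was tested in the same fit and called for 71 genes (0.347%), of which 17 were among the 275.

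Fabp5 had an interaction of 2.78 ± 0.41 in fed and -1.03 ± 0.41 in fasted mice, a difference of 3.81 ± 0.58 (adjusted p = 0.000286). For Slc2a4 it was -1.77 fed and 0.50 fasted, a difference of -2.28 ± 0.42 (adjusted p = 0.00779). Agpat9 and Casc4 were called different too, by 1.77 ± 0.43 (adjusted p = 0.0477) and 1.33 ± 0.30 (adjusted p = 0.0304). The fasted value of Casc4 was -0.15 ± 0.21. The fed and fasted values of Fabp5, Slc2a4 and Casc4 had opposite signs, but none of these 3 fasted interactions passed the test on its own (adjusted p = 0.133, 0.344 and 0.738). For Scd1 the values were -2.11 fed and -2.17 fasted, and for Acacb -2.01 and -1.94, with differences that did not pass the test (adjusted p = 0.976 and 0.97). Fasn was at -1.90 fed and -0.80 fasted (adjusted p of the difference = 0.192), Hamp2 at -6.62 and -2.77 (adjusted p = 0.299) and Igfbp1 at -3.32 and -0.25 (adjusted p = 0.111). In the fatty acid oxidation list, 4 of 39 genes were called different, against 0.347% of all genes. They were Acaa1a, Decr1, Hadha and Slc25a20, with interactions of 0.42, 0.31, 0.36 and 0.27 in fed mice and -0.29, -0.41, -0.39 and -0.43 in fasted mice. These encode enzymes of β-oxidation and the carnitine carrier. In the cholesterol synthesis list, 3 of 24 genes were called in fed and 13 in fasted mice (1.34% and 1.85% of all genes), with medians of -0.61 and -0.73, and the difference was called for 1, Hsd17b7 (0.347% of all genes).

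**Figure D5:**
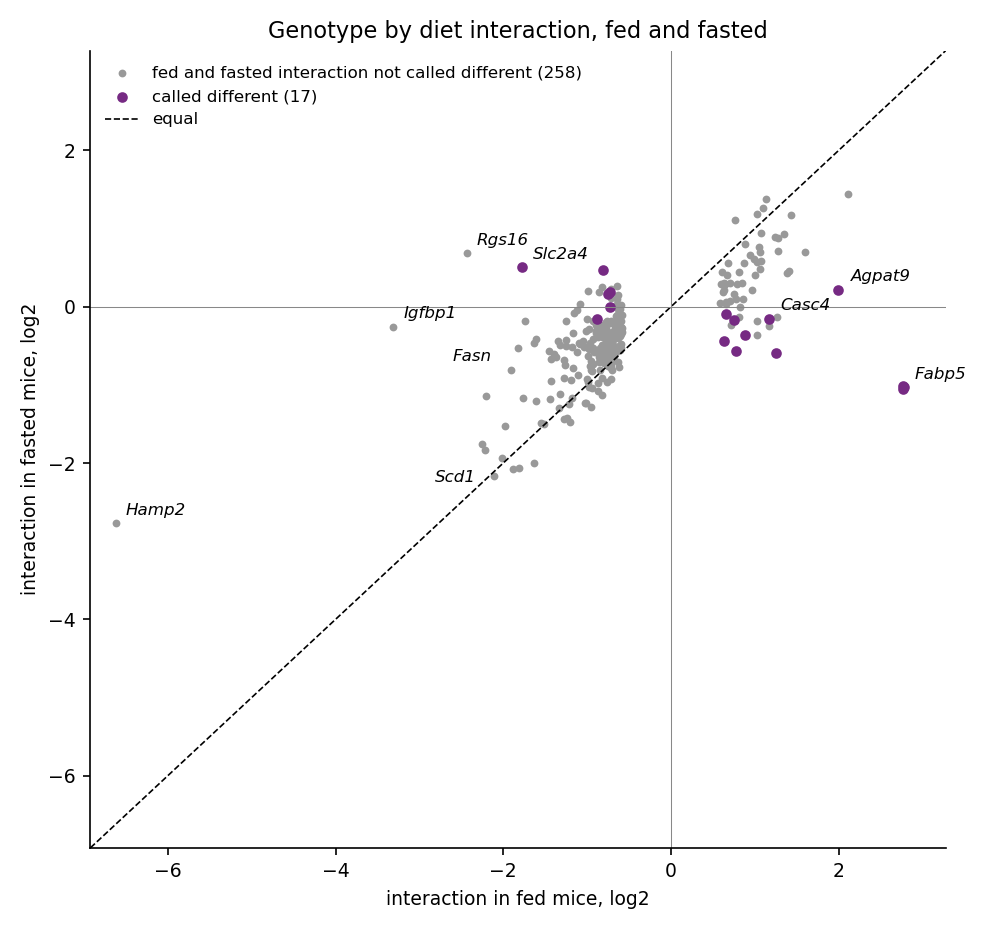
Genotype by diet interaction (log2) of the 275 genes called in fed mice (horizontal axis) and the same genes in fasted mice (vertical axis). Purple points are the 17 genes whose fed and fasted interactions were called different, and the dashed line marks equal values. Most genes share a sign, and Fabp5 and Slc2a4 lie in quadrants of opposite sign.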

How the data were processed

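Liver RNA of 48 male mice was hybridised to 48 one-colour Agilent 8x60K arrays, with 1 array of each of the 8 groups of 6 on every slide. Per the file headers, the scanner files hold spot intensities measured with Agilent Feature Extraction 10.10.1.1. The deposited table holds log2 values, which the authors made from median signals by filtering probes, correcting for the washing bath and quantile normalization.

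Here the median signal was taken to log2 after leaving out control and outlier spots, and replicate spots were merged by their mean. Probes had to exceed background clearly (the scanner software's flag) on 5 or more of the 6 arrays of any group, which left 30793 of 56605. The 2 washing batches were removed and the arrays quantile normalized. A linear model of the 8 groups with array weights was fitted to all 48 arrays, as in the study's methods (limma 3.58.1, statmod 1.5.0, R 4.3.3; P values with Benjamini–Hochberg correction over probes). The procedure was tested on simulated data. Precision is limited by the number of arrays. The labels number the samples of a group, and each is 1 mouse.

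The members and gene lists were chosen with earlier results of these data known. Genes are named from the array's design, and positions of probes are those of mm9. Named were the 12 largest calls in each direction that were well above background on at least 4 of 6 arrays in every fed group and had 1 sign in both washing batches, up to 5 dimmer calls in each direction, every called list member, Pik3ca, and uncalled members by role. Calls with placeholder names (33 of 275) were counted only, and some genes that the rule takes in are not reported here. The alternatives were other signals, background corrections, normalizations, filters, batch terms, weights, thresholds, probes and samples. The promoters come from RefSeq (GRCm38.p6).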

Additional observations from a re-analysis of the deposited data

Results flagged for a closer look

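A set of 18 of 276 checks of a named gene in a group had 1 array far from the other 5 by Dixon's test, which flags about 5% of such checks by chance. Replicate 3 of LKO HFD accounted for 7 of them. In that array Hamp2 was at 13.285, against 6.967 to 8.132 in the rest of its group, and Hamp at 14.863 against 4.882 to 7.95. Scd1 was at 15.716 (others 14.014 to 14.511), Scd3 at 9.08 (7.482 to 7.955), Ccl2 at 9.621 (7.307 to 8.119), Oasl2 at 8.445 (7.326 to 7.673) and Fitm1 at 7.584 (9.051 to 9.816).

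In the rest of LKO HFD, Slc2a4 was at 6.661 in replicate 4 (others 7.337 to 7.599), and Mab21l3 at 4.859 in replicate 6 (5.202 to 5.296). In LKO CTRL, replicate 4 had Acaca at 13.665 (13.093 to 13.233) and Acly at 14.902 (13.979 to 14.228). Replicate 5 of that group had Top2a at 7.26 (6.391 to 6.609) and Ucp2 at 8.473 (8.159 to 8.274), and replicate 2 had Igfbp2 at 15.737 (15.123 to 15.353) and Pik3ca at 13.022 (13.231 to 13.329). In LWT HFD, replicate 1 had Igfbp2 at 11.423 (12.364 to 12.623) and Col5a1 at 9.032 (8.599 to 8.735), and replicate 3 had Slc27a1 at 8.774 (8.083 to 8.263).

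The interaction differed between fed and fasted mice for 4 named genes. The fed minus fasted difference in the limma fit was 3.81 for Fabp5, 1.77 for Agpat9, 1.33 for Casc4 and -2.28 for Slc2a4, on the log2 scale.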

How the results depend on the processing

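The medians of fatty acid synthesis, cholesterol synthesis, cell cycle, NRF2, macrophage, stellate and lipid droplet genes were recomputed under every setting, and none turned its sign. Within a washing batch alone, 8 of all 35 list medians turned, each no larger than 0.149 in size over both batches. Those of ER stress genes (-0.13, and 0.25 in batch 2) and female-biased genes (-0.15, and 0.05 in batch 1) were the largest of them. Against 275 calls (63 positive and 212 negative), there were 146 (31 and 115) with no filter on dim probes, 163 (32 and 131) without the washing correction, 160 (32 and 128) without array weights, 98 (19 and 79) at an adjusted p of 0.01, and 580 (197 and 383) without the fold threshold. The processed signal gave 101 positive calls of 306 in all, so that 67.0% were negative, against 77.1%. Washing batch 1 alone gave 154 (110 negative) and batch 2 alone 4 (1 and 3), with 3 arrays per group in each. The causes of these shifts were not tested. The counts under median scaling, normexp, all arrays above background, a washing term, slide blocks, fed arrays alone, the deposited values and the median over probes lay between 204 and 271. Leaving out 1 array gave 170 to 400 calls, 33 to 94 positive and 136 to 306 negative. Of the 67 named genes that were called, none reversed under any of these settings, but many lost the call. The losses were 38 at an adjusted p of 0.01, 30 with no filter on dim probes, 25 without the washing correction, 20 without array weights, 20 with the replicate block, 19 with fed arrays alone and 16 with slide blocks, and between 0 and 7 under each other alternative of the fit. When a gene was read as the median of its probes, Acacb (-0.01), Acaca (-0.57), Cdc20 (-0.74), Nupr1 (-0.37), Tkt (-0.31) and Sox9 (0.49) lost the call. Of the 275 calls, 70 were called under all 13 alternatives of the signal, normalization, filter, probe, batch term, block, weights and arrays. Calls under fewer than 7 of these were those of Cdc20 (2), Foxm1 (3), Sox9 (3), Ckap2 (4), Parvb (5), Susd4 (5), Gpam (6), Col1a2 (6), Cyp2c53-ps (6) and Slc35f2 (6).

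With the replicate number as a block, 202 genes were called (44 positive and 158 negative), 198 of them among the 275. Deviations of same-numbered arrays correlated between -0.34 and 0.27 (5 of 36 pairs over 0.1), and 4 of 24 arrays were closest to their own number, so that the numbers do not pair the mice.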

Other observations

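Several called genes outside the lists, chosen after their values were seen, belong to known groups, and in each LWT HFD was the group that stood apart, as the highest. Of the chemokine genes, Cxcl10 had an interaction of -1.28 ± 0.33 (limma, adjusted p = 0.0246) and Ccl4 -0.87 ± 0.19 (adjusted p = 0.00615). Anxa2, the gene of the membrane-binding protein annexin A2, was at 10.93, 11.56 and 12.14 in LWT CTRL, 13.15, 13.76 and 14.10 in LWT HFD, 10.72, 10.99 and 11.14 in LKO CTRL, and 11.46, 11.82 and 12.14 in LKO HFD. All LWT HFD arrays were above all others, with an interaction of -1.18 ± 0.20 (adjusted p = 0.000594). The calcium-binding protein genes S100a4 and S100a6 had -1.32 ± 0.30 (adjusted p = 0.0111) and -1.11 ± 0.30 (adjusted p = 0.0368), and Vim, the gene of the filament protein vimentin, -0.74 ± 0.20 (adjusted p = 0.0334). S100a6 and Vim were called in 12 and 15 of 24 fits that left out 1 array.

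Genes of chromosome segregation were called as well. The values were -0.81 for the kinesin gene Cenpe (adjusted p = 0.0106), -0.84 for Cdca5 (adjusted p = 0.0227), -0.76 for Cdca8 (adjusted p = 0.0146) and -0.66 for Nusap1 (adjusted p = 0.0182). Of DNA replication genes, Cdt1, which licenses origins, had -0.98 (adjusted p = 0.0329), Pold1, a DNA polymerase subunit gene, -0.65 (adjusted p = 0.00401), and Lig1, DNA ligase 1, -0.66 (adjusted p = 0.0471). As these genes were picked from the calls, no count over them was tested.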
